A study of Mus musculus with 35 samples.

Results

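In mouse embryos, 38 autosomal genes were close to silent in control zygotes and present in control 2C embryos, and they are described here by identity, by spread between embryos and by level after injection of Kdm5b-yfp mRNA. They were chosen by measured values, out of 24480 genes counted. A gene qualified if its mean was below 1 CPM in control zygotes and at least 10 CPM in control 2C samples, where CPM is the gene's count per 1000000 counts of the sample, Kdm5b left out. Of 54 genes that met both limits, 13 were set aside because their symbol belongs to a known 2-cell family or list (among them Zscan4, Obox, Tdpoz, Usp17l and Pramef genes), and 3 because they are X-linked. The level in the control samples, and the difference between the control stages, are thus a description and carry no test.

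The embryos were C57BL/6NRj, fertilised in vivo after superovulation of females aged 3 to 4 weeks, and both injected and control embryos were wild type. KDM5B removes methyl groups from lysine 4 of histone H3, and mRNA for a YFP-tagged form of it was injected at about 1150 ng/µl into 10 zygotes and, in both blastomeres, into the embryos of 6 2C samples. Nuclease-free water was injected into 10 control zygotes and the embryos of 9 control 2C samples. Zygotes were collected 17 h after ovulation, and 2C embryos 5.5 to 8 h after division, which was about 5 to 6 h after injection at either stage. Each zygote sample was 1 zygote. Of the control 2C samples, replicates 1 to 6 were single intact embryos, replicate 7 pooled single blastomeres of 2 embryos and replicates 8 and 9 those of 3 each, and of the Kdm5b 2C samples replicates 1 to 5 were single intact embryos and replicate 6 pooled single blastomeres of 3. The 2C embryos came from zygotes that had been frozen and thawed, and the libraries of the stages were made on separate days, so stage, freezing and library day cannot be told apart. Because the controls received water, the action of KDM5B and that of any injected mRNA cannot be told apart either.

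A fertilised mouse egg starts out with RNA stored by the oocyte, and its own genome is transcribed at a low level in the zygote and strongly later in the 2-cell stage, a change called embryonic genome activation (EGA). The transcripts that appear first include multicopy gene families found in few other tissues, many of them transcribed from promoters derived from retrotransposons, and some general stress and signalling genes. CPM is a share, so more RNA of a gene and less of all other RNA give the same value.

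The sequences before the start of these genes are shown first, because some of them share long runs of letters. The set of RefSeq promoter sequences used here (GRCm38.p6) covered 25 of the 38 genes, which is 65.8%. This is under the 80% needed for a comparison of sequence features between groups of genes. Any such comparison is thus void, and the features below are given as descriptions. Among the 300 possible pairs of the 25 stretches of 250 bases before the start, 5 pairs had an identical run of at least 20 bases on the gene's own strand. This search was added after the sequences had been seen. The stretches of 5 genes from 4 of those pairs are shown, written 5′ to 3′ up to the base before the start, with every run of at least 20 bases that a pair shares in capitals.

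B020004C17Rik (chr14:57014884-57015133, plus strand): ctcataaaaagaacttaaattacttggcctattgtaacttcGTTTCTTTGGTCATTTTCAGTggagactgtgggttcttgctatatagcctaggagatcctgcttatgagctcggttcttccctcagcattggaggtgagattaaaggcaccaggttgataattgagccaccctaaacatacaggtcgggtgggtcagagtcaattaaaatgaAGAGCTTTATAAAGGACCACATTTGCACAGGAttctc
Gm428 (chr4:73683264-73683513, plus strand): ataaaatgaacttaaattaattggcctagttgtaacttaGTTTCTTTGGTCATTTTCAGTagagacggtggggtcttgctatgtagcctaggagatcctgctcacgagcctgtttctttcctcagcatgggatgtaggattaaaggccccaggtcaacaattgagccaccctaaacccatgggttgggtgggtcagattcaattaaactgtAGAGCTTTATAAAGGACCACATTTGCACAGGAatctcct
Gm8994 (chr6:136327289-136327538, plus strand): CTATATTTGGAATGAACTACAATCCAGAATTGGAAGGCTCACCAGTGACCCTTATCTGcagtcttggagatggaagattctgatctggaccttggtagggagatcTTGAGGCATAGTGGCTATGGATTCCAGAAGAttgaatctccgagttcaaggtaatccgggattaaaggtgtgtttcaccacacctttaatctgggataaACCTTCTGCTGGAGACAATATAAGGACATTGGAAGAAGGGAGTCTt
B020004J07Rik (chr4:101844023-101844272, minus strand): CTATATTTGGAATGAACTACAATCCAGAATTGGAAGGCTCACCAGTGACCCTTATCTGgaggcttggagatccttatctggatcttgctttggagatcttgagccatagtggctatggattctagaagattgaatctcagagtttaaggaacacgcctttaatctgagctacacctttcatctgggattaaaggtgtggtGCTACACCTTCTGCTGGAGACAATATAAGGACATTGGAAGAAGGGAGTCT
Gm12789 (chr4:101986590-101986839, plus strand): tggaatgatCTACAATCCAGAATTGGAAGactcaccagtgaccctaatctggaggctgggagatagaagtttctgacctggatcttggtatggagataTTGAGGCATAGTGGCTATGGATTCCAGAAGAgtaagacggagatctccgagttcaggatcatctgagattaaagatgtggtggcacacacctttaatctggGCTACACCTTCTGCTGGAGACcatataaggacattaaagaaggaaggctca

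B020004C17Rik on chromosome 14 and Gm428 on chromosome 4 shared 32 bases, which began 37 and 39 bases before their starts and held the letters TATAAA, and 21 bases that began 209 and 211 bases before them. Laid over each other without gaps, their stretches were identical at 203 of 248 bases (81.9%). Of the 27025 stretches in the table, 3 held the run of 32, those of B020004C17Rik, Gm428 and Gm11487, and 6 held the run of 21. Gm8994 and B020004J07Rik, on chromosomes 6 and 4, shared 58 bases at the far end of the stretch, a run that 3 of the 27025 held. They also shared 45 bases that reached to the start in B020004J07Rik and to 1 base before it in Gm8994, a run that 14 of the 27025 held. Gm8994 and Gm12789 shared 31 bases, likewise found in 3 of 27025. A run of 20 bases in the far part of the stretch was common to Gm8994, B020004J07Rik and Gm12789 and stood in 5 of 27025. B020004J07Rik and Gm12789 shared 21 bases that began 50 and 51 bases before their starts. That run stood in 14 of 27025 stretches, 4 of which belong to genes on the list of 2-cell genes used here (Gm21312, Gm4340, Sp110 and B020004J07Rik itself). The remaining pair, Gm21319 and Ubtfl1, shared 20 bases that were also found in 14 of 27025 stretches, with BB287469, Gm4027, Gm21319 and Ubtfl1 from the same list. The motifs searched on both strands of the 250 bases were TATAAA (the TATA box), the homeodomain letters TAATCC, the nuclear receptor letters AAGGTCA, the GC box GGGCGG and the CCAAT box, and none of them contains another. TAATCC was present in 6 of the 25 stretches (Gm8994, Gm4858, B020004J07Rik, Gm21319, Gm428 and Guca1a) and in 6.38% of all 27025. TATAAA was present in 2 of 25 and 13.0% of all, AAGGTCA in 1 and 4.05%, GGGCGG in 8 and 32.9%, and CCAAT in 10 and 34.5%. In B020004C17Rik and Gm428, the TATAAA letters began 30 and 32 bases before the start. CpG number varied among the genes. The 5 stretches printed above held 0.4 to 1.2 CpG per 100 bases, and 11 of the 25 (44%) held fewer than 2. Of all 27025 stretches 44.5% did, and of those of the 5336 genes 9.22%. All these shares are descriptions, and no comparison is drawn from them. Others of the 25 held more CpG, with 6.00 for Jun, 6.80 for Mt1 and Tle3, 7.20 for Bag3 and Il6ra and 9.20 for 2610206C17Rik.

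By identity the genes included many with predicted-gene symbols. A predicted-gene symbol (Gm and digits, or Rik) was carried by 16 of the 38, or 42.1%, compared with 3.44% of all autosomal genes at 10 CPM or more in control 2C samples. RefSeq listed 36 of the 38, of which 33 are protein coding, 1 is a long non-coding RNA (2610206C17Rik) and 2 are transcribed pseudogenes (Gm4971 and Gm2027). The current RefSeq symbols show that families excluded by name still had members here: Gm13078 is now Pramel24, B020004J07Rik is Pramel17 and Gm4858 is Tdpoz8. Gm8994 is now Eif4a3l1, a name that marks it as similar to the exon junction helicase gene Eif4a3. The genes were short, with a median exon length of 1919 bases and a median of 3 exons, and 7 had a single exon. The other 6824 autosomal genes at 10 CPM or more had a median of 3393 bases and 11 exons. Neighbours were few. On chromosome 13, AF067063 (119827961 to 119830217), LOC106029237 (119912035 to 119913468) and B020031M17Rik (119949357 to 119950806) were all on the minus strand of GRCm38. LOC106029237 lay within 100 kb of each of the other 2, and all 3 lay within 100 kb of Tcstv1. On chromosome 12, Gm21319 (87772425 to 87775755) and Gm2016 (87874072 to 87877859) lay within 100 kb of each other. Gm2022, 1 of the genes set aside by name, lay within 100 kb of Gm2016. Farther apart than 100 kb on chromosome 4 lay B020004J07Rik (101834969 to 101844022) and Gm12789 (101986840 to 101990231), whose shared runs are shown above. So did BC080695 (143567467 to 143573798) and Gm13078 (143719451 to 143729158) on the same chromosome. Fragments that map to several places were left out of the deposited counts by default, so genes with near-identical copies, which several of the predicted genes may have, are undercounted by an unknown amount.

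"Close to silent" described the mean and not every zygote. None of the 38 genes had 0 fragments in all 10 control zygotes, and 36 had 0 in at least 1 of them. Summed over the 38 genes, the level was 3.94 CPM in the lowest control zygote, 15.1 in the median and 39.3 in the highest, and no single gene exceeded 3.87 CPM in any zygote of either group. Control zygote replicate 5 was the highest, and the next had 21.0 CPM. In control 2C samples the sum ran from 281 CPM (replicate 5) over a median of 506 to 1550 (replicate 4), and every control 2C sample had fragments on all 38 genes. For 30 of the 38 genes, all 9 control 2C samples lay above the highest control zygote, as they did for 2.77% of all genes; since the rule used these samples, nothing is read from this. Just inside the 10 CPM limit stood Zbed6 at 10.2 and Hist1h2ak at 10.3 CPM, and just outside it Vimp at 9.86 and AF067061 at 9.50. Just inside the zygote limit stood Mt1 at 0.885 and Bag3 at 0.855 CPM, and just outside Ficd at 1.03 and Gm2a at 1.04.

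**Figure D1:**
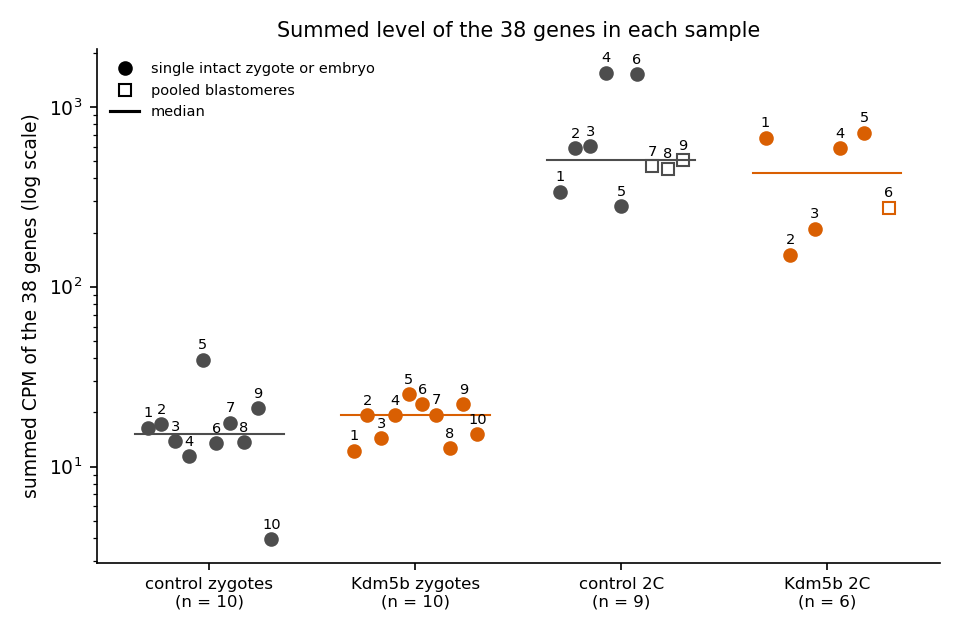
Summed CPM of the 38 genes in each sample on a log axis, by group, with the replicate number above each point, the group median as a line and pooled blastomeres as open squares. All 2C samples, from 151 to 1550 CPM, lie above all zygotes, at most 39.3 CPM, and control 2C replicates 4 and 6 lie above the other control 2C samples.

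The Kdm5b-injected samples, which the rule did not use, gave an independent look at the stage difference. Their zygotes had summed levels of 12.3 to 25.3 CPM with a median of 19.3, and their 2C samples 151 to 718 CPM with a median of 431. For 24 of the 38 genes, all 6 Kdm5b 2C samples lay above the highest Kdm5b zygote, as did 4.96% of all 24479 genes. In edgeR's quasi-likelihood test, where a call needed both a log2 fold change beyond 1 in size and an adjusted p below 0.05, 33 of the 38 genes passed the filter on low counts and all 33 were called higher in Kdm5b 2C samples, compared with 10.5% of the 12390 genes tested. The filter passed most of them through the 2C group alone, where they are high, so the count over those 33 is not support in itself. The other 5, B020004C17Rik, Gm12789, Gm2016, Gm2027 and Gm21319, were too low for the filter. With no filter, 38 of 38 were called higher, beside 1988 of 20183 genes in all. Their median log2 fold change was 4.88 there, where the median of all genes was −0.03. In DESeq2's Wald test 38 of 38 were called higher too, beside 1975 of 20027 genes in all.

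Among these, Ubtfl1, an HMG-box gene related to the ribosomal RNA gene activator UBTF and active in early embryos, was at 0 in 9 of 10 Kdm5b zygotes and had 1 fragment in the other. In Kdm5b 2C samples it stood at 6.14 CPM in the lowest, 19.3 in the median and 35.1 in the highest. Gm13078 (Pramel24), a PRAME family gene, was also at 0 in 9 of 10 Kdm5b zygotes and ran from 8.12 over 16.2 to 62.4 CPM at 2C. Both genes were thus nearly absent from every injected zygote and present in every injected 2C sample. Gm8994 rose from a highest Kdm5b zygote of 0.649 CPM to a lowest Kdm5b 2C sample of 11.6 (log2 fold change 7.03 ± 0.52 SE, edgeR adjusted p = 5.28e-11). Jun, a subunit of the AP-1 transcription factor and an immediate-early gene, had at most 1.87 CPM in Kdm5b zygotes, and 0.581, 18.5 and 77.1 CPM in the lowest, median and highest Kdm5b 2C sample. Its rise was 5.31 ± 0.58 on the log2 scale (edgeR adjusted p = 2.96e-08), with 5 of 6 2C samples above the highest zygote. The smallest changes were those of Zbed6, a transcription factor gene derived from a DNA transposon, at 2.01 ± 0.51 (edgeR adjusted p = 0.0015), and Pdxk, which encodes pyridoxal kinase, at 2.50 ± 0.60 (edgeR adjusted p = 0.00091). By the limits of the rule, 19 of the 38 genes reached a mean of 10 CPM in Kdm5b 2C samples, and 35 stayed below 1 CPM in Kdm5b zygotes. The same limits applied to the Kdm5b samples chose 22 genes, 17 of them shared with the 38 (44.7% of the 38 and 77.3% of the 22).

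Per length, in TPM (counts divided by exon length, scaled to 1000000 per sample), the highest of the 38 genes in Kdm5b 2C samples was Mt1, a metallothionein that binds metal ions, at 82.3 TPM ± 74.1 (SD, n = 6). It was followed by Hist1h2ak, a replication-dependent histone H2A gene, at 64.3 ± 43.5, Gm8994 at 52.3 ± 28.6, Gm20767 at 47.6 ± 27.1 and Gm4971 at 43.3 ± 28.1 TPM. Neighbours in this order differed by less than the SD between samples. The next were Gm13078 at 39.8 ± 34.8, Spz1, a spermatogenic leucine zipper gene, at 34.5 ± 28.6, Gm7102 at 34.5 ± 19.5, Guca1a, a guanylate cyclase activator known from photoreceptors, at 33.2 ± 21.3, and LOC106029237 at 29.4 ± 21.5 TPM. In control 2C samples Mt1 stood at 93.3 ± 71.7, Gm4971 at 92.6 ± 53.3 and Gm8994 at 89.4 ± 57.3 TPM (SD, n = 9).

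The genes varied widely between embryos. Among the 6 single intact control 2C embryos, the coefficient of variation (CV, SD over mean of CPM) had a median of 0.900 over the 38 genes, from 0.464 to 1.64, and 36 were over 0.5. The other 6824 autosomal genes at 10 CPM or more had a median of 0.285, and the 3454 of them below the highest mean of the 38 genes had 0.366. The rule used the means of these embryos, and high values in a few of them are enough to meet it, so this is a description. In the 5 single intact Kdm5b 2C embryos, which the rule did not use, the median CV was 0.780 for the 38 genes, 0.211 for the 6824 and 0.276 for the 3454.

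**Figure D2:**
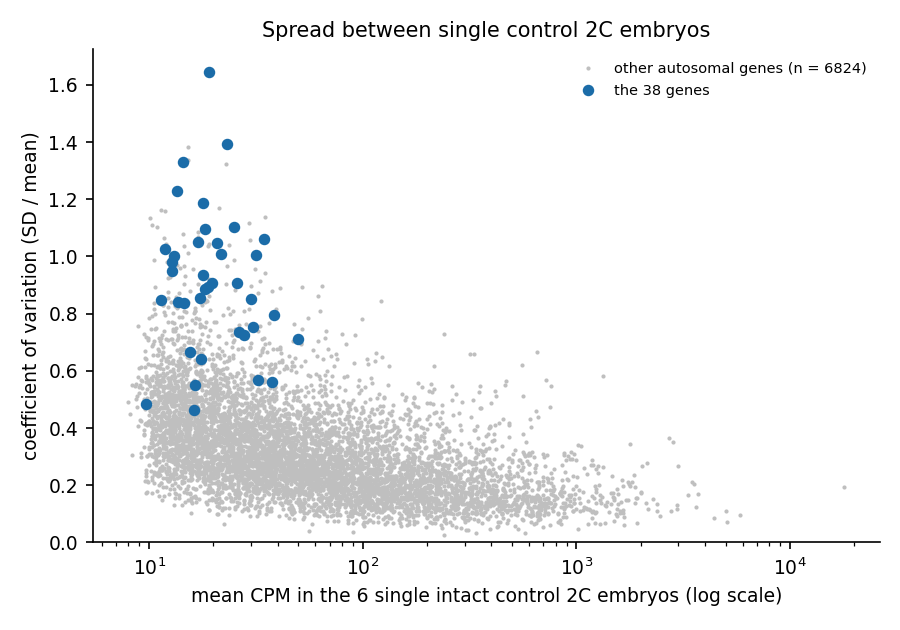
Coefficient of variation of CPM among the 6 single intact control 2C embryos against mean CPM (log axis), for the 38 genes (blue) and the other 6824 autosomal genes at 10 CPM or more in control 2C samples (grey). The 38 genes have CVs of 0.464 to 1.64 with a median of 0.900, and the grey points a median of 0.285.

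Control 2C replicates 4 and 6 stood above the others. Replicate 4 was the highest of the 9 control samples for 17 of the 38 genes and replicate 6 for another 17, whereas they were the highest for 12.8% and 16.1% of all genes at 10 CPM or more. The sums by control replicate were 338, 588, 606, 1550, 281 and 1514 CPM in the single embryos 1 to 6, and 467, 452 and 506 in the pools 7 to 9. Replicate 5 was the lowest for 13 genes and replicate 1 for 8. The summed level of 13 other 2-cell marker genes (among them Zscan4 and Usp17l genes) was also highest in replicates 4 and 6, at 955 and 726 CPM, and lowest in replicate 5, at 201, and whether developmental progress within the collection window moved with the 38 genes was not tested. Cumulus cell markers stood at 28.0 and 28.1 CPM in replicates 4 and 6, within the 14.4 to 40.5 of all control 2C samples, and 4 of the 16 were at 0 in every one. In control 2C samples 12 of the 16 had a mean under 1 CPM and 1 reached 10 CPM, so few genes carry this sum. In control zygotes the sum was 20.8 to 31.2 CPM. Over all 9 control samples, pools included, the median CV was 0.871 for the 38 genes and 0.262 for the 6824. Without replicates 4 and 6, it was 0.577 and 0.251 over the other 7 control samples, and 19 of the 38 would still have met the limits.

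The largest spread was that of Tle3, a Groucho-family co-repressor (CV 1.64), which stood at 82.4 CPM in replicate 6 and at 1.40 to 13.9 in the other 8 control samples. B020004J07Rik (Pramel17, CV 1.39) was highest in replicate 4 at 86.8 CPM, next at 25.8, and lowest in replicate 5 at 0.459. Zfp622 (CV 1.33), whose product takes part in ribosome assembly, stood at 52.2 CPM in replicate 6 and at 0.676 to 17.2 in the others. Pdxk (CV 1.23) had 45.1 CPM in replicate 6, and 16.8 in the next sample. Prmt6, an arginine methyltransferase of histone H3 (CV 1.19), was highest in replicate 4 at 56.5 CPM, followed by replicate 6 at 28.7. In each of these 5 genes, the highest value thus came from replicate 4 or 6. The smallest spreads were 0.46 for B020031M17Rik (5.97 to 26.4 CPM over the 9 samples), 0.48 for Hist1h2ak (2.95 to 16.5), 0.55 for Gm21319 (4.21 to 26.8), 0.56 for Gm4971 (10.6 to 63.8) and 0.57 for Gm20767 (13.3 to 68.2). Totals were 8705584 to 17797581 counts per sample.

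**Figure D3:**
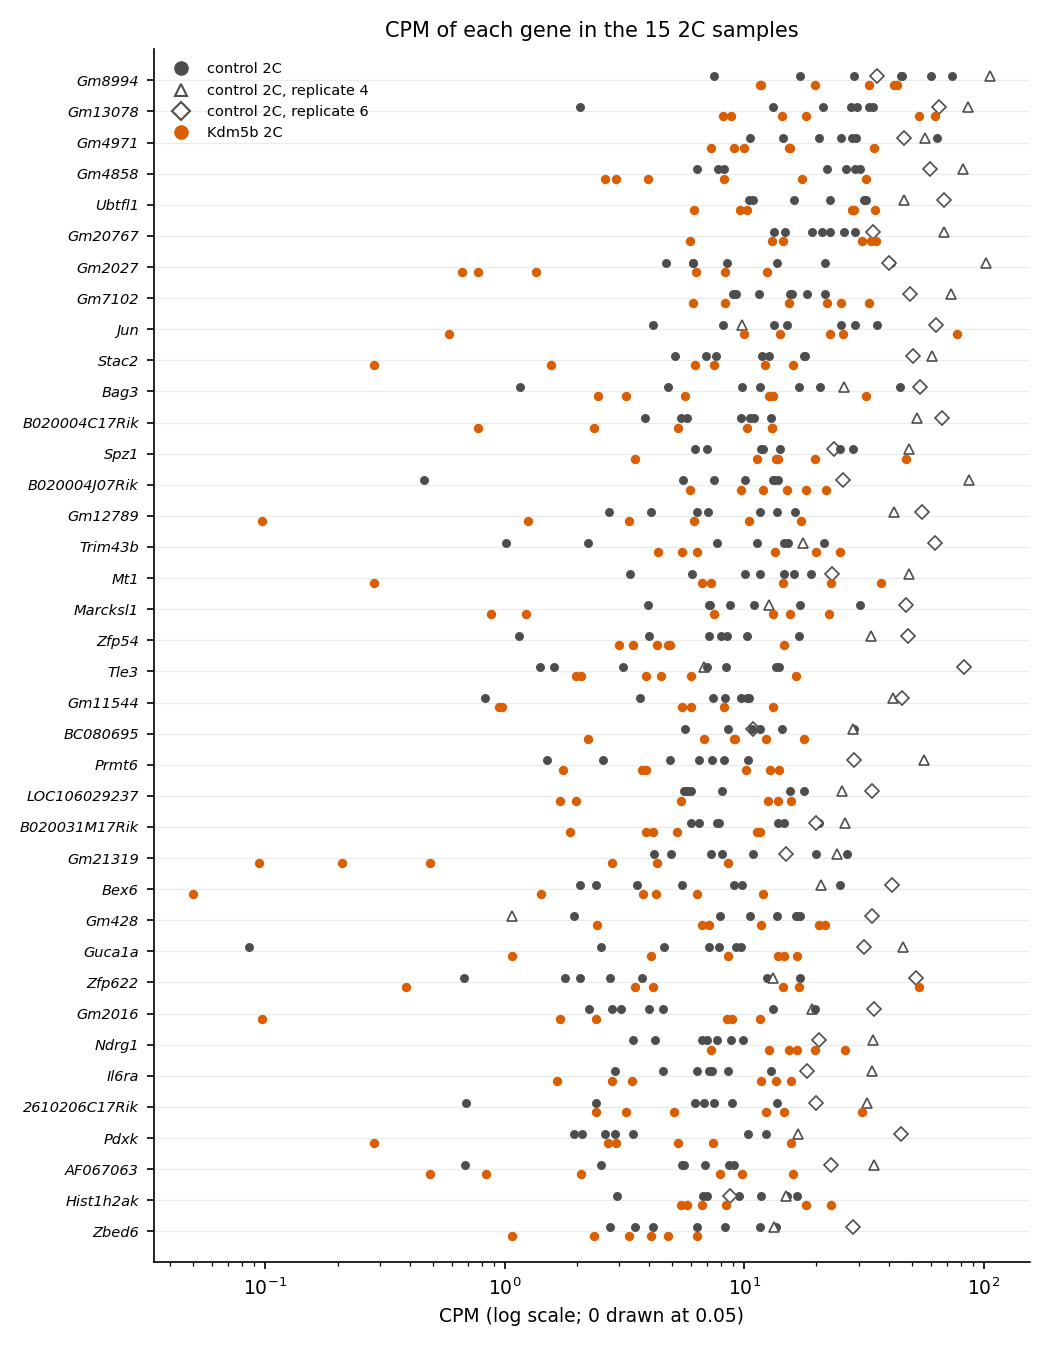
CPM (log axis) of each of the 38 genes in the 9 control 2C samples (grey, with replicate 4 as open triangles and replicate 6 as open diamonds) and the 6 Kdm5b 2C samples (orange), ordered by control mean. Replicates 4 and 6 are each the highest control sample for 17 genes, and the control and Kdm5b ranges overlap for every gene.

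After injection of Kdm5b-yfp mRNA, Kdm5b made up 8.27% to 15.8% of the gene counts in 2C samples and 2.30% to 10.4% in zygotes, and at most 0.0189% in controls. At the 2C stage none of the 38 genes passed the test against water-injected samples. In edgeR's quasi-likelihood test, 1 of 12244 genes was called (0.00817%), and it was not among the 38, all of which had passed the filter. DESeq2's Wald test called 0, but gave no adjusted p for 9 of the 38. The estimates were nonetheless mostly below 0, with 33 of 38 lower after Kdm5b injection and a median log2 fold change of −0.68, compared with 50.3% of all genes and a median of −0.00. At an unadjusted p under 0.05, 9 of the 38 were lower and 0 higher, compared with 4.91% of all genes lower. The 38 genes were chosen for high means in these same control samples, so the choice and the comparison share samples. The 22 genes chosen by the same limits in the Kdm5b samples, which share the other group, had 15 lower and a median of −0.30. Since 17 of the 22 are also among the 38, they are not a separate set of genes.

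The estimates lay nearer 0 without control replicates 4 and 6. Each was the highest control for 17 of the 38 genes, so leaving them out must raise estimates, and no like removal was made among the Kdm5b samples. Without that pair, an alternative added after the data had been seen, 21 of 38 estimates were below 0 and the median was −0.12, with 3 lower and 1 higher at an unadjusted p under 0.05. Without replicate 4 alone the median was −0.46, and without replicate 6 alone −0.36. The labels give an index number for each library but name no strip or batch. The index strips used here were inferred by grouping these numbers, with 81 to 88 as strip 11 and 89 to 95 as strip 12. Control replicates 4 and 6 fall in strip 12, together with control replicates 5 and 7 to 9 and only 1 Kdm5b sample (replicate 5). With the index strip as a covariate, 23 of 38 were below 0 with a median of −0.13, and within strip 11 alone (3 control and 5 Kdm5b samples) 27 were, with a median of −0.26. The sums within strip 11 were 338, 588 and 606 CPM in the controls and 674, 151, 210, 588 and 275 CPM in Kdm5b replicates 1, 2, 3, 4 and 6, which overlap. Kdm5b replicate 5 stood at 718 CPM, between the 6 controls of its strip at 281 to 1550.

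**Figure D4:**
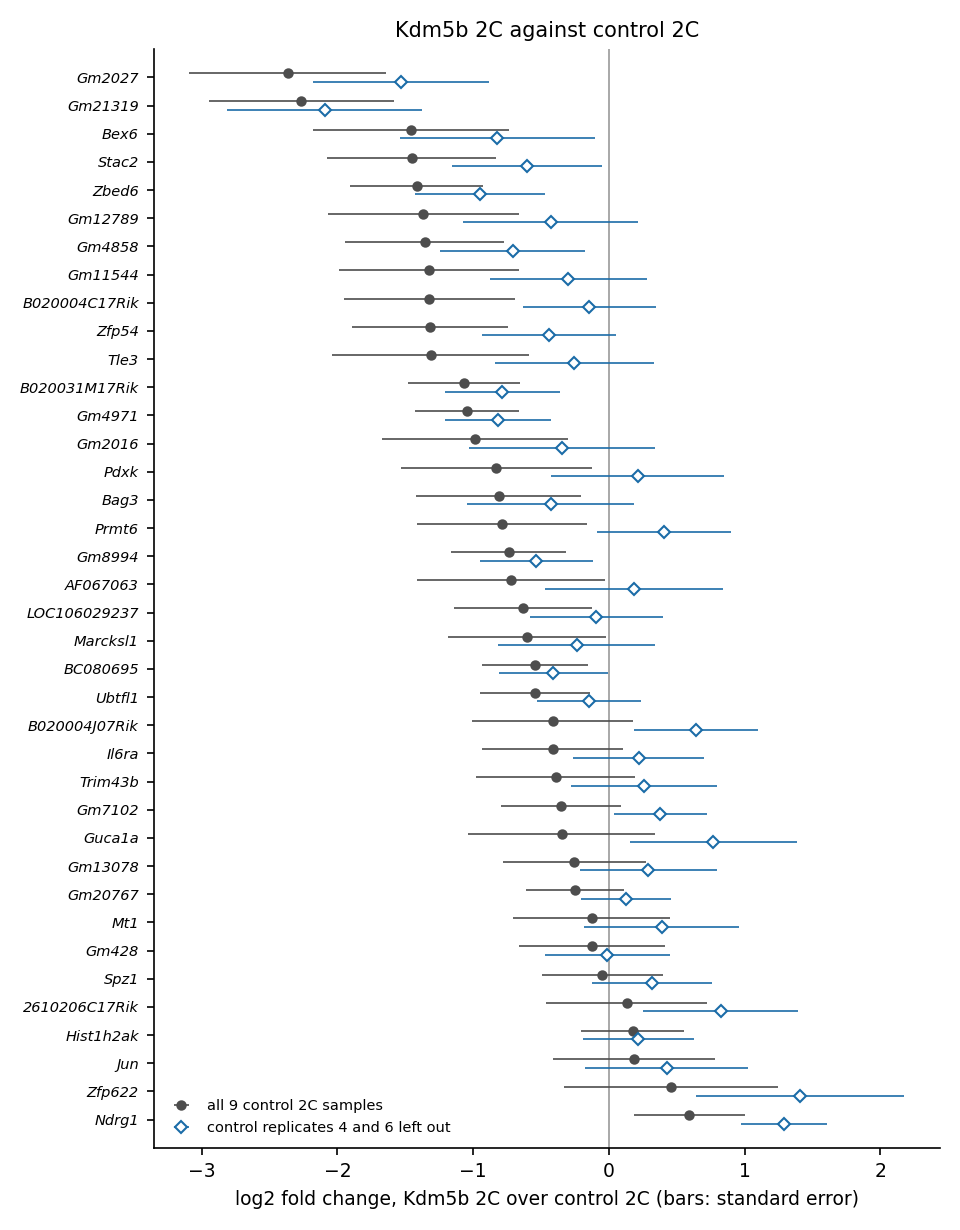
Log2 fold change of each of the 38 genes in Kdm5b over control 2C samples, with standard errors, from all 9 control samples (grey points) and with control replicates 4 and 6 left out (open blue diamonds). With all samples 33 estimates lie below 0 with a median of −0.68, and without the pair 21 do, with a median of −0.12.

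The 5 lower genes with the smallest p kept estimates below 0 without replicates 4 and 6, and none passed the adjustment with or without them. Gm21319 stood at 4.21, 10.9 and 26.8 CPM in the lowest, median and highest control 2C sample, and at 0.0944, 1.65 and 8.52 CPM in Kdm5b samples. The groups overlapped in the range above 4.21 CPM (log2 fold change −2.27 ± 0.68 SE, edgeR adjusted p = 0.28, and −2.10 ± 0.72 without the pair). Gm2027 had 4.70, 13.7 and 102 CPM in controls and 0.661, 3.83 and 12.5 after Kdm5b injection. It gave −2.37 ± 0.72 (edgeR adjusted p = 0.30), was −1.53 ± 0.65 without replicates 4 and 6, and was called lower only where all 35 samples shared a fit. Zbed6 had 2.76, 8.30 and 28.5 CPM in controls and 1.07, 3.68 and 6.34 in Kdm5b samples (−1.42 ± 0.49, edgeR adjusted p = 0.36). Gm4971 had 10.6, 28.1 and 63.8 CPM in controls and 7.27, 12.7 and 34.7 after Kdm5b (−1.05 ± 0.38, edgeR adjusted p = 0.37). B020031M17Rik had 5.97, 13.8 and 26.4 CPM in controls and 1.87, 4.71 and 11.6 after Kdm5b (−1.07 ± 0.41, edgeR adjusted p = 0.41). In Gm21319, Gm2027 and B020031M17Rik the Kdm5b median lay below the lowest control, in Zbed6 and Gm4971 it lay within the control range, and the groups overlapped in all 5.

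Only 5 of the 38 genes had estimates above 0, and none of these passed either. Ndrg1, a gene induced by stress and low oxygen, stood at 3.42, 7.68 and 34.3 CPM in the lowest, median and highest control and at 7.28, 16.0 and 26.3 after Kdm5b injection. Its log2 fold change was 0.59 ± 0.41 with all samples (edgeR adjusted p = 0.72), and 1.29 ± 0.32 without replicates 4 and 6 (edgeR adjusted p = 0.17). Zfp622 gave 0.46 ± 0.79 (edgeR adjusted p = 0.93), a value carried by Kdm5b replicate 1 at 53.4 CPM, since the other Kdm5b samples ran from 0.388 to 16.8, and without that replicate the estimate was −0.49. Jun gave 0.19 ± 0.60 (edgeR adjusted p = 0.97) and also rested on Kdm5b replicate 1, at 77.1 CPM against 25.7 in the next sample, with −0.56 when it was left out. Hist1h2ak, at 0.17 ± 0.38 (edgeR adjusted p = 0.95), and 2610206C17Rik, at 0.13 ± 0.59 (edgeR adjusted p = 0.98), also changed sign when single samples were left out.

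In zygotes, injection moved none of the 38 genes past the test. The filter on low counts passed 7 of them (Gm20767, Hist1h2ak, Il6ra, Mt1, Pdxk, Spz1 and Zbed6), and 0 were called by edgeR, beside 1 of 11933 genes in all (0.00838%). At an unadjusted p under 0.05, 0 of the 7 differed. With no filter, 38 could be fitted, of which 19 had lower estimates, 2 were lower and 0 higher at an unadjusted p under 0.05, and 0 were called, with a median log2 fold change of −0.02. DESeq2's Wald test gave no adjusted p for any of the 38, with 1 lower and 0 higher at an unadjusted p under 0.05. The highest means among the 38 genes in Kdm5b zygotes were 1.60 CPM for Mt1, 1.09 for Pdxk and 1.01 for Hist1h2ak. Mt1 ran from 0 over 0.323 to 2.67 CPM in control zygotes and from 0.382 over 1.29 to 3.38 in Kdm5b zygotes, which overlap. At these levels, at most 58 fragments of any of these genes in a zygote, small changes were not detectable.

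Other genes known from this stage were compared as lists, chosen with earlier results of these data known. Of 37 listed 2-cell genes outside the excluded families, 7 were among the 38 (Ubtfl1, B020004J07Rik, B020031M17Rik, Gm2016, Gm20767, Gm21319 and Spz1). Of the other 30, 19 could be tested between Kdm5b 2C samples and Kdm5b zygotes, of which 8 were called higher and 1 lower, where 10.5% of all genes tested were called higher and 16% lower. Between Kdm5b and control 2C samples 25 could be tested, 0 were called and 21 had lower estimates, with a median of −0.39. Over all genes tested, 50.3% had lower estimates, with a median of −0.00. The summed level of the 37 listed genes was 3901 and 3575 CPM in control replicates 4 and 6. In the other control 2C samples it was 2455 to 3715 CPM. Whether the lower estimates of this list rest on replicates 4 and 6 was not tested. Of the 32 stress and immediate-early genes, Jun alone was among the 38, and of the other 31, 26 could be tested between the Kdm5b stages, with 6 higher and 3 lower. Early lineage and pluripotency factors had 0 of 25 among the 38, with 5 higher and 2 lower of 19 tested between the Kdm5b stages. Of 479 genes with zinc finger symbols, 2 were among the 38 (Zfp54, which encodes a KRAB-type zinc finger protein, and Zfp622). That was 5.26% of the 38, beside 2.99% of autosomal genes at 10 CPM or more in control 2C samples. In the comparison of Kdm5b with control 2C samples, 0 genes of the stress and lineage lists were called.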

How the data were processed

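RNA of 35 samples was sequenced by the authors with a stranded single-cell kit. The deposited table holds raw counts of fragments per RefSeq gene, made by the authors with fastp 0.21.0, STAR 2.7.3a (GRCm38) and featureCounts 1.5.1 (paired, sense strand, multi-mapping fragments not counted by default). It also gives exon lengths. The deposited table of repeats was not used. Totals were 8705584 to 17797581 counts per sample, and 0 columns lacked a sample.

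CPM and TPM were computed from the counts without the Kdm5b row. For each comparison, the samples of its groups alone entered a fit in edgeR 4.0.16 (R 4.3.3, TMM, filterByExpr with a minimum count of 10, quasi-likelihood test, Benjamini-Hochberg over all genes tested). A call needed a log2 fold change beyond 1 in size and an adjusted p below 0.05. Standard errors (SE) of log2 fold changes were taken from the quasi-likelihood F statistic. DESeq2 1.42.0 served as an alternative, and Python 3.11.15, pandas 2.3.3, numpy 2.4.6 and matplotlib 3.10.9 for tables and plots. The fits were tested on simulated data. The genes were chosen with earlier results of these data known, as were the gene lists and the rule for named genes: the 10 highest in TPM after Kdm5b injection, the 5 largest and 5 smallest CVs, the 5 lower and 5 higher with the smallest p in Kdm5b against control 2C, any gene not called between the Kdm5b stages, the 3 highest in Kdm5b zygotes, and those nearest the limits. Others were named after their values were seen. Replicates are separate embryos or pools; the females they came from are not stated, so p values measure the spread between these samples.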

Additional observations from a re-analysis of the deposited data

Results flagged for a closer look

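For the 22 genes named by rule and for the summed level, 48 sets of values (a gene or the sum in 1 group) were checked for a sample whose gap to the next, divided by the range, was above Dixon's 95% critical value. For normally distributed values, chance flags about 1 in 20 such sets, and 15 were flagged here. The 15 cannot be set against that rate. The genes include the 5 with the largest CV in these control embryos, CPM values need not be normal, and sets from the same samples are not independent. In control zygotes, replicate 5 stood apart in the summed level at 39.3 CPM, and the next zygote had 21.0.

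Among control 2C samples, replicate 4 stood apart for Mt1 (48.7 CPM), Gm20767 (68.2 CPM), B020004J07Rik (86.8 CPM), Prmt6 (56.5 CPM) and Gm2027 (102 CPM). Replicate 6 stood apart for Tle3 (82.4 CPM), Zfp622 (52.2 CPM), Pdxk (45.1 CPM) and Zbed6 (28.5 CPM). In Kdm5b 2C samples, replicate 5 stood apart for Gm4971 (34.7 CPM) and Spz1 (47.4 CPM), and replicate 1 for Tle3 (16.5 CPM), Zfp622 (53.4 CPM) and Jun (77.1 CPM). All of these were high values. The causes were not tested.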

How the results depend on the processing

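In Kdm5b against control 2C samples, 0 of the 38 genes were called under every alternative except the fit of all 35 samples, which called 1 (Gm2027); DESeq2's Wald test gave no adjusted p for 9 of them. The number of lower estimates, 33, fell to 21 and the median log2 fold change, −0.68, rose to −0.12 without control replicates 4 and 6, and the median was −0.13 with the index strip as a covariate. With samples left out in turn, 0 genes were called throughout, 26 to 34 estimates were lower and the median ran from −0.86 to −0.36. With the replicate number as a replicate block, 0 genes were called, 34 estimates were lower and the median was −0.82. Same-numbered samples did not deviate together (correlations of −0.24 to 0.08 in 2C samples and −0.08 to 0.10 in zygotes). This gave no sign that the numbers pair the samples, but it cannot show whether they shared females or handling. Under the replicate block, Zfp622 was at −0.27 and Jun at −0.54, against 0.46 and 0.19 without it, and Jun was at −0.056 within strip 11. Of the named genes with estimates above 0, leaving out single samples gave −0.49 to 1.22 for Zfp622, −0.15 to 0.30 for Hist1h2ak, −0.56 to 0.52 for Jun and −0.46 to 0.52 for 2610206C17Rik. The causes were not tested.

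Between the Kdm5b stages, 33 genes were called higher, 15 of 15 tested at a mean of at least 50 counts (a filter met through the 2C group, so this count is no support), 32 with the replicate block (Pdxk was lost), and 32 to 36 with a sample left out. In zygotes 0 were called under each alternative that tested any, DESeq2 giving no adjusted p for the 38, and at a mean of at least 50 counts no gene of the 38 was left to test. The number of genes chosen, 38, became 5 with limits of 0.5 and 20 CPM, 224 with 2 and 5 CPM, 60 in TPM (24 of them among the 38), 26 by medians (22 shared), 19 without control 2C replicates 4 and 6, and 22 from the Kdm5b samples. It was 30 to 44 with a control sample left out. The median CV of 0.900 was 0.780 in the 5 Kdm5b embryos, 0.710 without replicates 4 and 6, and 0.814 to 0.906 with an embryo left out. The alternatives without replicates 4 and 6, within strip 11, and from the Kdm5b samples were chosen after seeing the data.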
